A study of Mus musculus with 14 samples.

Results

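The 9 genes described here encode the ligands Vegfa, Vegfb, Vegfc and Pgf, the receptor tyrosine kinases Kdr, Flt1 and Flt4, and the co-receptors Nrp1 and Nrp2. They were taken by symbol from the 54524 Ensembl genes of the count table, of which 54495 were found in GENCODE vM21, and all 9 were among the 26626 genes that passed the filter on low counts. Read counts per gene were available for liver sinusoidal endothelial cells (LSECs), the fenestrated cells that line the capillaries of the liver. The LSECs were sorted from livers of male Balb/c mice aged 10 to 12 weeks that were either healthy and not injected (n = 4) or had received a single intraperitoneal dose of CCl4, a solvent toxic to hepatocytes, in mineral oil (0.5 µL per g). Livers were taken 1 day (n = 2), 3 days (n = 4) or 7 days (n = 4) after the injection. The sort kept cells positive for CD32 and negative for the macrophage antigen F4/80, autofluorescence and propidium iodide. The paper's methods add that they were negative for the immune cell marker CD45, which the labels do not name. Since healthy mice received neither injection nor oil, CCl4 and its vehicle cannot be told apart. The labels do not say that the samples of a group came from separate mice, so p-values measure the spread between these samples.

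VEGF ligands are secreted dimers that bring together receptor kinases on endothelial cells. VEGF-A signals mainly through Kdr (VEGFR2), the kinase that drives endothelial survival, migration and division, while Flt1 (VEGFR1) binds VEGF-A, VEGF-B and placental growth factor (Pgf) tightly with weak kinase activity and is known as a decoy. VEGF-C acts through Flt4 (VEGFR3), the receptor of lymphatic vessels that LSECs also carry. Neuropilins have no kinase of their own and present ligands to these receptors, and they also bind class 3 semaphorins. In the liver, VEGF-A from neighbouring cells is known to maintain the fenestrae of LSECs.

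Between 46401496 and 103912264 reads were counted on genes per sample. Some libraries stood apart. Healthy replicate 4 had a summed level of 8 hepatocyte markers of 7729 counts per 1000000 reads (CPM), against 177 to 347 in the other healthy samples, 31.8 and 133 at day 1, a range of 817 to 2878 at day 3 and one of 771 to 6169 at day 7. Day 3 replicate 4 correlated less well with day 3 replicates 1 and 2 (Pearson's r of log2 CPM over genes 0.875 and 0.882) than these did with each other (0.963). All 8 LSEC markers were detected in every group, with a summed level of 15110 to 18520 CPM in healthy LSECs, 11330 to 14030 at day 1, 9660 to 12370 at day 3 and a range of 8677 to 13280 at day 7. One of these genes, Fcgr2b, encodes the antigen used in the sort. The summed level of 9 monocyte and neutrophil markers was 545 to 1481 CPM in healthy samples, 4430 to 8524 at day 1, from 1400 up to 12700 at day 3, and at day 7 it was 4276 to 9734. For 10 hepatic stellate cell markers it was 137 to 256, 97.4 to 115, 607 to 1872 and 338 to 5352 CPM. None of the genes of these lists was below 3 counts in all samples of a group. The part of these other cells in the results below was not tested.

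Per length of exon, Kdr was the most abundant of the 9 genes in healthy LSECs. Its level was 245 ± 17.7 CPM per kb of merged exon (SD, n = 4), place 207 of 26618 genes with a length. Nrp1 followed with 161 ± 13.0, Flt4 with 76.7 ± 12.3 and Flt1 with 38.3 ± 1.32 CPM per kb, and the samples of these neighbours did not overlap. Vegfb (25.4 ± 0.870) and Nrp2 (23.3 ± 2.15) overlapped in level, as did Vegfc (3.27 ± 0.882) and Vegfa (2.74 ± 0.626). Pgf was lowest, at 0.0689 ± 0.0275 CPM per kb. Among the ligands, LSECs thus held most mRNA of Vegfb. The order of the 9 changed with injury. At day 1, the mean level per kb of Flt4 (65.3) and Flt1 (36.6) was above that of Nrp1 (32.8), with Flt1 and Nrp1 overlapping. Kdr remained first by its mean at every time, at 74.9 CPM per kb at day 1, 144 at day 3 and 171 at day 7, although its samples overlapped those of Flt4 at day 1 and those of Flt4 and Nrp1 at day 3.

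After CCl4, the clearest changes among the 9 genes were lower Kdr and Nrp1. At day 1, Kdr was at 30.5% and Nrp1 at 20.3% of its healthy level, and these were the only 2 of 9 genes called, that is, with a Benjamini-Hochberg adjusted p under 0.05 in edgeR's quasi-likelihood test over all 26626 genes. Over all genes, 4.06% were called in this comparison and 1.64% were called lower. DESeq2 called 3 of the 9 at day 1 (with Pgf higher) and limma 5 (with Pgf, Vegfa and Vegfc higher). In edgeR, 5 of the 9 had an unadjusted p under 0.05 at day 1. At day 3, Nrp1 was called lower and Vegfc was called higher, so again 2 of 9 against 7.19% of all genes, of which 4.62% were called higher and 2.58% lower. DESeq2 called 4 of the 9 at day 3 (with Kdr and Flt1 lower) and limma 6 (with Nrp2 and Vegfb lower too). At day 7 none of the 9 was called, against 3.18% of all genes. With that test, 3 of the 9 had an unadjusted p under 0.05 at day 7, while DESeq2 called 1 (Vegfc) and limma called 4 (Kdr, Nrp1, Vegfa and Vegfc). Both tools also called more of all genes than edgeR did. For limma these were 4308, 7265 and 7047 of 26626 at day 1, day 3 and day 7, and those of DESeq2 are given at the end. The median log2 fold change of the 9 genes was -0.12 at day 1, -0.23 at day 3 and -0.29 at day 7, beside -0.03, 0.18 and 0.02 over all genes tested.

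**Figure D1:**
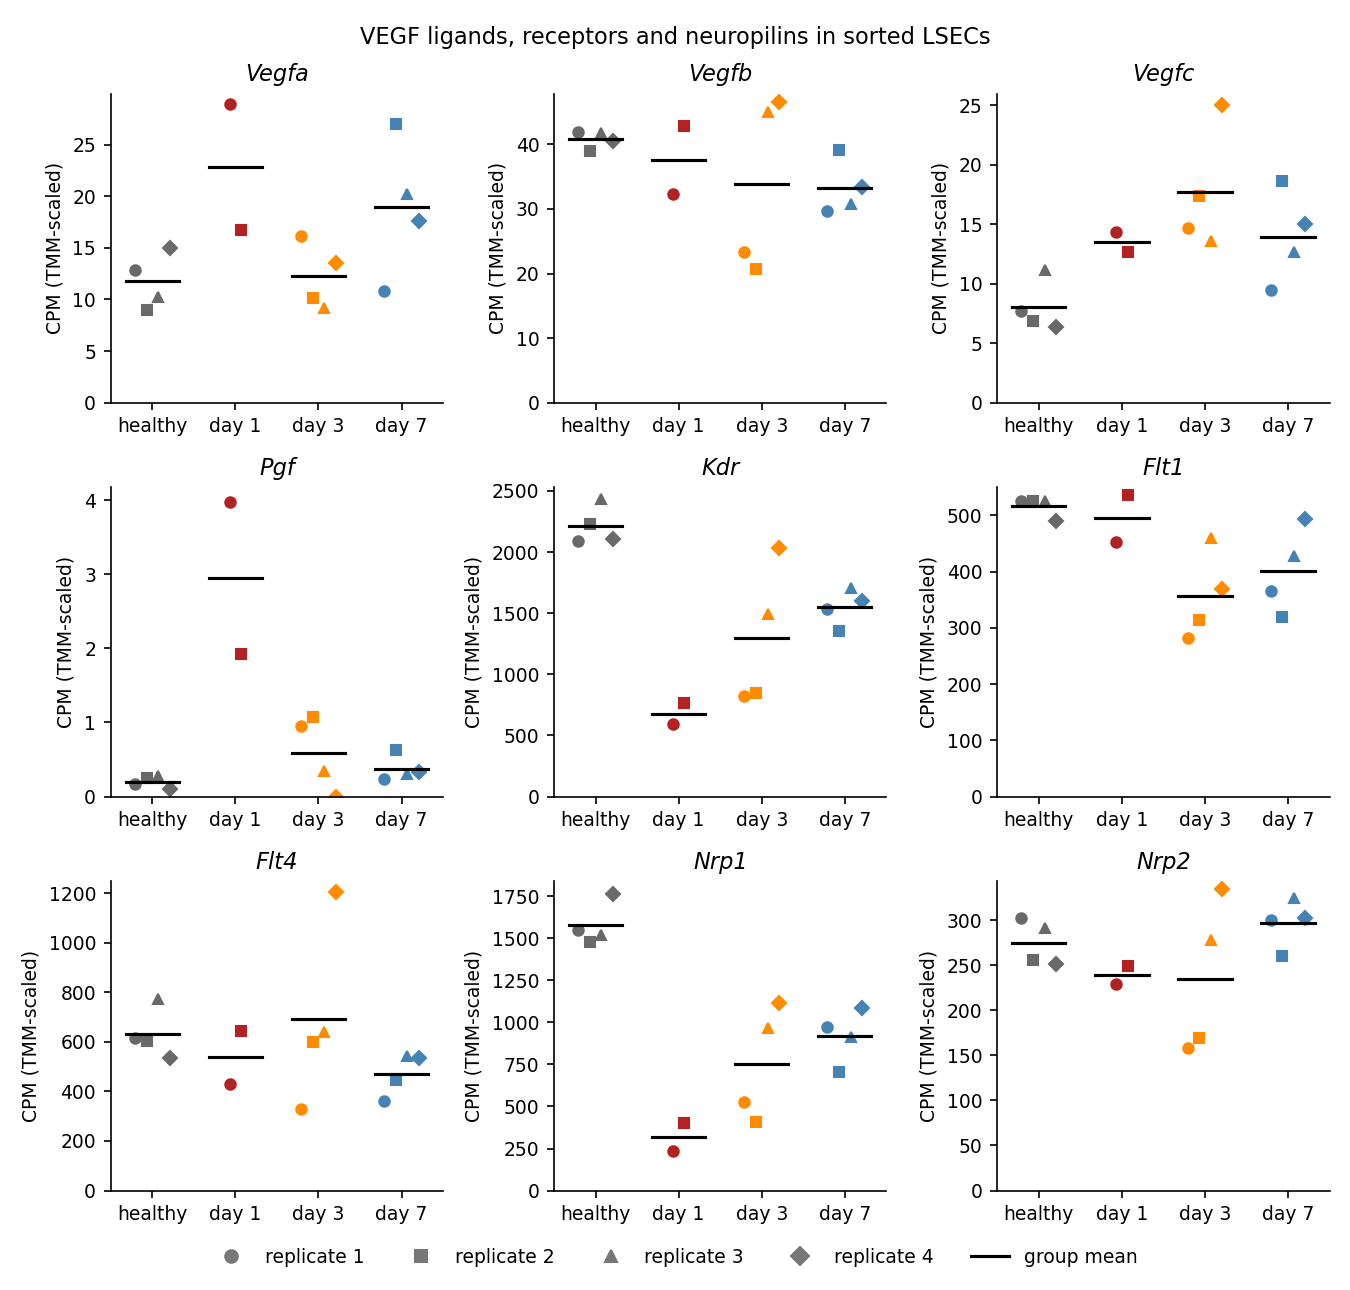
Level of each gene in CPM (TMM-scaled library sizes, linear axes from 0) in every sample of healthy LSECs and of LSECs at day 1, day 3 and day 7 after CCl4, with symbols for replicates and a line at the group mean. Kdr and Nrp1 are lowest at day 1 (592 and 761 CPM, 237 and 404 CPM), and Pgf is highest there (3.97 and 1.93 CPM).

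**Figure D2:**
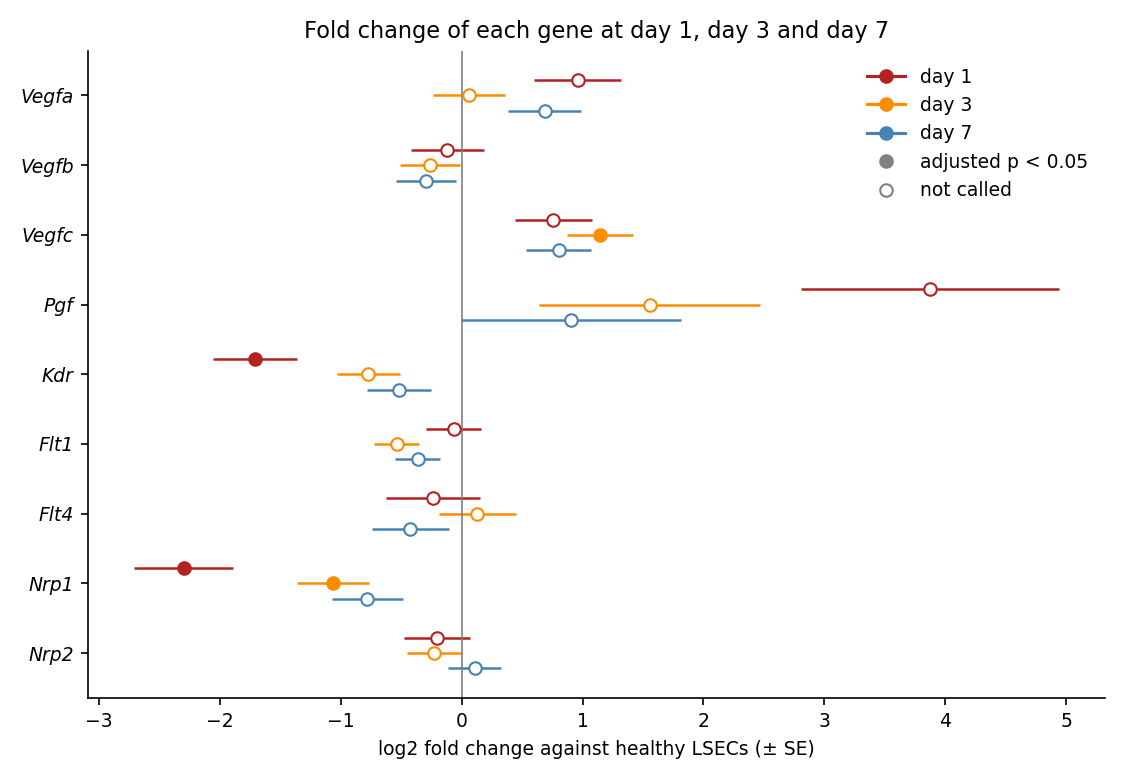
Log2 fold change of each gene against healthy LSECs with its standard error (horizontal bars), at day 1, day 3 and day 7; filled points are called at an adjusted p under 0.05. Filled points are Kdr (-1.71) and Nrp1 (-2.30) at day 1 and Nrp1 (-1.06) and Vegfc (1.14) at day 3.

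Among the ligands, Vegfa (chr17:46016993-46032369, minus strand, GRCm38) encodes the principal growth factor of blood vessels. It had 12.9, 8.94, 10.2 and 14.9 CPM in healthy LSECs, 29.0 and 16.7 at day 1, 16.1, 10.2, 9.20 and 13.5 at day 3, and 10.8, 27.0, 20.3 and 17.6 at day 7. Both day 1 samples were above all healthy samples, whereas day 3 and day 7 overlapped them. The log2 fold change was 0.96 ± 0.36 (SE) at day 1, 0.06 ± 0.30 at day 3 and 0.69 ± 0.30 at day 7. The adjusted p-values in edgeR were 0.165, 0.932 and 0.212. With limma, Vegfa was called higher at day 1 (adjusted p = 0.0178) and day 7 (0.0239). Vegfb (chr19:6982473-6987651, minus strand) encodes a ligand of Flt1 linked to fatty acid handling. It had 41.9, 38.9, 41.8 and 40.5 CPM in healthy LSECs, 32.3 and 42.9 at day 1, 23.3, 20.8, 45.1 and 46.6 at day 3, and 29.7, 39.1, 30.8 and 33.4 at day 7. The healthy samples lay close together and were overlapped by all 3 later groups, and at day 3 replicates 1 and 2 were low while 3 and 4 were high. Its log2 fold changes of -0.12, -0.26 and -0.29 had adjusted p-values of 0.527 or more in edgeR, while limma called Vegfb lower at day 3 (-0.75, adjusted p = 0.00919).

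Vegfc (chr8:54077606-54187096, plus strand), the ligand that drives lymphatic growth, was the single ligand called by edgeR. It was measured at 7.66, 6.83, 11.1 and 6.38 CPM in healthy LSECs, 14.4 and 12.7 at day 1, 14.7, 17.4, 13.6 and 25.1 at day 3, and 9.50, 18.6, 12.7 and 15.0 at day 7. All day 1 and day 3 samples were above all healthy samples, and 1 day 7 sample fell within the healthy range. At day 3 Vegfc rose 2.21-fold (log2 fold change 1.14 ± 0.27 SE, adjusted p = 0.0232). The increases of 0.76 ± 0.32 at day 1 and 0.80 ± 0.27 at day 7 were not called by edgeR (adjusted p = 0.229 and 0.115). With limma, Vegfc was called higher at day 1 (adjusted p = 0.039), and at day 7 DESeq2 and limma called it higher. Without healthy replicate 1, 2 or 4 the day 3 call was lost (adjusted p = 0.0679, 0.0736 and 0.0983), and without healthy replicate 4 and day 3 replicate 4 together the fold change was 0.75 with an adjusted p of 0.103. It was also lost without a filter on low counts (0.0744) and in a model of these 2 groups alone (0.0687). The summed level of 5 lymphatic endothelial markers was 14.2 to 19.6 CPM in healthy samples. It lay between 5.99 and 9.59 at day 1, 35.5 and 69.3 at day 3, and 21.9 and 181.5 at day 7. Of the 5, edgeR called 0 at day 1, 1 higher at day 3 and 2 higher at day 7. Over all genes, 4.62% and 2.19% were called higher at day 3 and day 7. The paper lists Reln, a gene of this sum, as enriched in healthy human LSECs. The part of these markers in the level of Vegfc was not tested.

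Pgf (chr12:85166635-85177790, minus strand), a ligand of Flt1 that is scarce in resting vessels, had the lowest counts of the 9 genes. Reads on Pgf numbered 17, 21, 27 and 9 in healthy LSECs, 332 and 175 at day 1, 79, 63, 32 and 0 at day 3, and 23, 45, 14 and 29 at day 7. Both day 1 samples were above every other sample. At day 3, replicates 1 to 3 were above the healthy range in CPM and replicate 4 had no read, where 3 counts would be 0.0318 CPM. In CPM, Pgf was 0.200 ± 0.0797 (SD, n = 4) in healthy LSECs and 3.97 and 1.93 at day 1. The log2 fold change at day 1 was 3.87 ± 1.06 SE with an adjusted p of 0.0606, so it was not called, whereas DESeq2 (0.00425), limma (0.000983) and the edgeR fit of these 2 groups alone (0.00831) called it. The values of 1.56 ± 0.91 at day 3 and 0.91 ± 0.91 at day 7 had adjusted p-values of 0.353 and 0.607, and without day 3 replicate 4 the former was 1.87 with an adjusted p of 0.0315.

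Among the receptors, Kdr (chr5:75932827-75978458, minus strand) had 2088, 2231, 2436 and 2107 CPM in healthy LSECs and 592 and 761 CPM at day 1. At day 3 it had 821, 848, 1493 and 2031 CPM and at day 7 1531, 1357, 1703 and 1601. Every sample after CCl4 was below every healthy sample, the day 1 samples were lowest, and the day 3 samples spread over 2.47-fold, with replicates 1 and 2 low. At day 1 Kdr was 3.27-fold lower (log2 fold change -1.71 ± 0.35 SE, adjusted p = 0.0131). At day 3 the log2 fold change was -0.77 ± 0.26 (adjusted p = 0.0958) and at day 7 -0.52 ± 0.26 (0.272). The day 1 call was lost without either day 1 sample, at -1.57 (adjusted p = 0.354) without replicate 1 and -1.93 (0.106) without replicate 2, and at day 3 Kdr was called without replicate 4 (-1.15, adjusted p = 0.0105).

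Flt1 (chr5:147561604-147726011, minus strand) did not follow Kdr at day 1. Its values were 525, 526, 525 and 490 CPM in healthy LSECs and 452 and 537 at day 1. At day 3 it had 282, 315, 460 and 369 CPM and at day 7 365, 320, 428 and 494. The day 1 samples lay on either side of the healthy range, all day 3 samples were below it, and day 7 overlapped it. Flt1 was not called by edgeR at any time. The log2 fold change was -0.06 ± 0.23 at day 1 (adjusted p = 0.942), -0.54 ± 0.19 at day 3 (0.103) and -0.36 ± 0.19 at day 7 (0.276), and the day 3 value without replicate 3 was -0.83 with an adjusted p of 0.0264. DESeq2 (-0.54, adjusted p = 0.0232) and limma (-0.73, 0.00433) called Flt1 lower at day 3. Reads on the soluble and the membrane forms of Flt1 were not counted apart.

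Flt4 (chr11:49609263-49652739, plus strand) had 615, 602, 774 and 536 CPM in healthy LSECs and 429 and 646 at day 1. It had 329, 597, 638 and 1204 CPM at day 3 and 362, 445, 542 and 536 at day 7. All groups overlapped, and the widest spread was at day 3, from replicate 1 to replicate 4. The log2 fold changes of -0.23 ± 0.39, 0.13 ± 0.31 and -0.42 ± 0.32 at day 1, day 3 and day 7 were not called (adjusted p = 0.847, 0.848 and 0.467).

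Nrp1 (chr8:128358604-128503363, plus strand), the co-receptor that strengthens VEGF-A binding to Kdr, had the largest fold changes of the 5 receptor genes in the comparisons with healthy LSECs. It had 1549, 1478, 1521 and 1763 CPM in healthy LSECs and 237 and 404 at day 1. It had 526, 410, 968 and 1117 CPM at day 3 and 974, 702, 913 and 1087 at day 7. Every sample after CCl4 was below every healthy sample, and at day 3 replicates 1 and 2 were again the low ones. The log2 fold change was -2.30 ± 0.41 at day 1 (adjusted p = 0.0064) and -1.06 ± 0.30 at day 3 (0.0466), and at day 7 it was -0.78 ± 0.30 without a call (0.155). Without day 1 replicate 1 the day 1 value was -2.00 with an adjusted p of 0.239, and the day 3 call was lost without any 1 of the 4 healthy samples or day 3 replicates 1 or 2 (adjusted p = 0.0859 to 0.109), with library size as the only scaling (0.115) or in a model of these 2 groups alone (0.0996). The gene for the microRNA Mir1903 lies within Nrp1 and shares 80 exon bases with it.

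Nrp2 (chr1:62703285-62818695, plus strand), the neuropilin of veins and lymphatic vessels, had 303, 255, 291 and 252 CPM in healthy LSECs and 230 and 249 at day 1. It had 159, 169, 279 and 334 CPM at day 3 and 300, 260, 325 and 303 at day 7. Both day 1 samples were just below the healthy range and the later groups overlapped it. The log2 fold changes of -0.20 ± 0.27, -0.23 ± 0.22 and 0.11 ± 0.22 were not called by edgeR (adjusted p = 0.794, 0.600 and 0.821). With limma Nrp2 was called lower at day 3 (-0.63, adjusted p = 0.007). Of the 9 genes, 6 had no overlap between day 1 and healthy samples, 4 between day 3 and healthy and 2 between day 7 and healthy, while over all genes tested the shares were 37.9%, 14.4% and 20.8%.

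The day 3 samples split in the same way for several of these genes, and the sum of monocyte and neutrophil markers split with them. Replicates 1 and 2 had the lower Kdr, Flt1, Flt4, Nrp1, Nrp2 and Vegfb and the higher Pgf. They had 12700 and 7869 CPM of the monocyte and neutrophil markers, and replicates 3 and 4 had 1515 and 1400 CPM. The pan-endothelial marker sum was 1683 and 2220 CPM in replicates 1 and 2 and 2318 and 3490 in replicates 3 and 4. For Kupffer cell and macrophage markers it was 1597 and 1431 CPM, then 570 and 607. LSEC markers summed to 9660 and 10650 CPM, then 11650 and 12370. Other vascular endothelial markers went the opposite way to the pan-endothelial ones, with 1270 and 1500 CPM, then 969 and 1049. The sums of 2 other lists did not split this way. Stellate cell markers had 1419 and 1302 CPM, then 607 and 1872, and hepatocyte markers 817 and 2127 CPM, then 2878 and 1794. At day 7, the monocyte and neutrophil sum of 4276 to 9734 CPM stood beside Kdr values of 1357 to 1703 CPM. The part of these markers in the levels of the 9 genes was not tested, and in bulk RNA fewer cells of a type and less RNA per cell cannot be told apart. Without day 3 replicates 1 and 2 the log2 fold change of Nrp1 at day 3 was -0.63 (adjusted p = 0.119).

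Scaling to 8 pan-endothelial genes in place of all genes moved the median log2 fold change of all genes at day 1 from -0.03 to 0.16, at day 3 from 0.18 to 0.90 and at day 7 from 0.02 to 0.65. On this scale Kdr (-1.52, adjusted p = 0.0144) and Nrp1 (-2.14, 0.00547) were still called lower at day 1. At day 3, Vegfc was at 1.83 (0.00148) and Nrp1 at -0.43 without a call (0.242), and at day 7 Kdr turned to 0.12 (0.759). Called higher on this scale alone were Flt4 at day 3 (0.75, adjusted p = 0.0385) and Nrp2 at day 7 (0.74, 0.0295), and Vegfa (1.32, 0.0352) and Vegfc (1.47, 0.00631) were also called higher at day 7. The 8 reference genes include Cdh5, which was itself called higher at day 1 (1.06, adjusted p = 0.0137) and is named for that, and 2 of the 8 were called lower at day 3 and 2 at day 7. Of all genes called, 59.6%, 64.2% and 68.8% were higher at day 1, day 3 and day 7 with TMM scaling, 74.5%, 98.7% and 99.5% on the pan-endothelial scale, and 61.5%, 75.1% and 86.8% with library size alone.

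The ratio of 2 genes in a sample does not depend on the scaling between samples, and the ratios below are per kb of exon, as a description without a test. The genes paired were chosen with earlier results known, and overlap of other gene pairs was not computed. Single genes did not overlap healthy for 37.9%, 14.4% and 20.8% of all genes at day 1, day 3 and day 7. A ratio also moves where its second gene alone falls, and Kdr and Nrp1 were called lower at day 1. Flt1 to Kdr was 0.168, 0.158, 0.144 and 0.155 in healthy LSECs and 0.511 and 0.472 at day 1, so the receptor known as a decoy gained on Kdr without overlap. It was 0.230, 0.248, 0.206 and 0.121 at day 3 and 0.160, 0.158, 0.168 and 0.206 at day 7, and both groups overlapped the healthy one. Flt4 to Kdr was 0.279 to 0.349 in healthy LSECs, 0.795 and 0.930 at day 1, from 0.439 up to 0.773 at day 3, and at day 7 it was 0.259 to 0.367. The ratio was above the healthy range at day 1 and day 3.

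The balance of the neuropilins stayed off its healthy value in all samples after CCl4. Nrp2 to Nrp1 was 0.118 to 0.161 in healthy LSECs, 0.799 and 0.510 at day 1, from 0.238 up to 0.341 at day 3, and at day 7 it was 0.230 to 0.306. The 3 later groups did not overlap the healthy one, and day 3 and day 7 overlapped each other. Among ligands, Vegfb to Vegfa was 7.23 to 11.6 in healthy LSECs, 2.98 and 6.85 at day 1, from 3.86 up to 13.1 at day 3, and at day 7 it was 3.86 to 7.36, so only the day 1 samples lay wholly below the healthy ones.

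**Figure D3:**
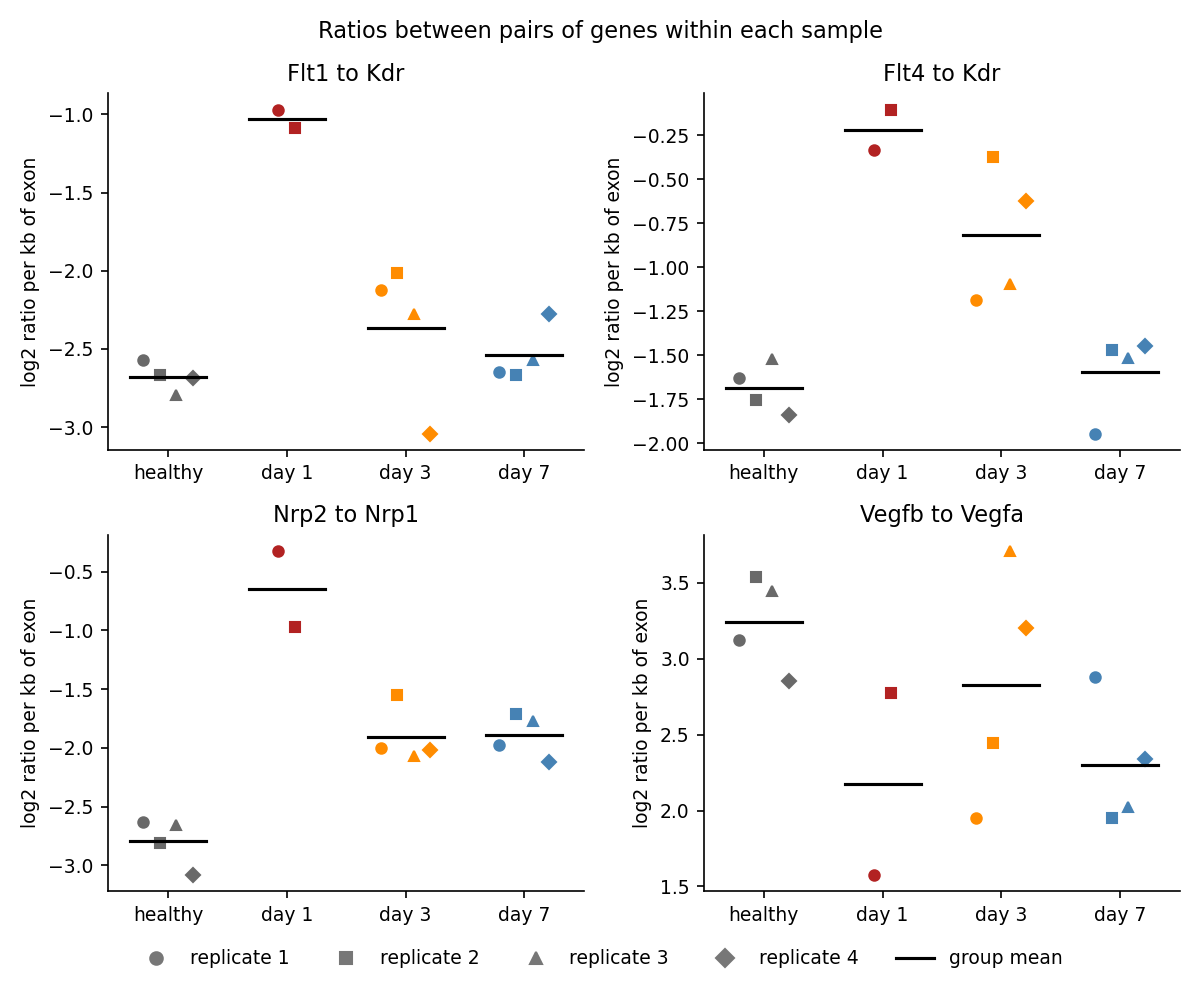
Log2 ratio per kb of exon between pairs of genes within each sample, by group, with symbols for replicates and a line at the group mean. Nrp2 to Nrp1 lies at 0.118 to 0.161 (untransformed) in healthy LSECs and at 0.230 or above in every sample after CCl4, while Flt1 to Kdr is apart from healthy at day 1.

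The question whether levels moved back towards healthy was put to the comparisons between days, which share their samples with the comparisons above. Kdr and Nrp1 rose from day 1 to day 7, by 1.19 ± 0.34 and 1.52 ± 0.39 on the log2 scale (adjusted p = 0.0452 and 0.0303), with no overlap of samples, as for 43.5% of all genes. These were 2 of 9 genes called, both higher, against 8.04% of all genes called and 3.65% called higher. Both calls were lost without day 1 replicate 1 (adjusted p = 0.425 and 0.398) or replicate 2 (0.216 and 0.125), and leaving out day 7 samples also ended the call of Kdr for each of the 4 and of Nrp1 for replicates 1, 3 and 4. Kdr was also not called with library size as the only scaling (0.0686) or without a filter (0.0899). From day 1 to day 3 none of the 9 was called by edgeR, against 2.54% of all genes, while 4 had an unadjusted p under 0.05 (Kdr, Nrp1, Vegfa and Pgf), DESeq2 called Kdr and Nrp1 higher, and limma called Flt1 lower. Pgf was lower at day 7 than at day 1 in all samples (log2 fold change -2.96 ± 1.04, adjusted p = 0.097). From day 3 to day 7 none of the 9 was called, against 1.77% of all genes, none had an unadjusted p under 0.05, DESeq2 called none, and limma called Kdr, Nrp1 and Nrp2 higher. Over all genes, limma called 3344 from day 1 to day 3 and 6002 from day 3 to day 7, and the numbers of DESeq2 are given at the end.

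The promoter sequences of Kdr and Nrp1, the 2 genes that fell together at day 1, and of Flt1, which was not called, are shown to set the 3 side by side. They are taken from the RefSeq start sites (GRCm38.p6), 5′ to 3′ on the strand of the gene, and run from 250 bases before the start up to it, leaving out bases within GENCODE vM21 exons. That of Kdr is chr5:75978459-75978705 (minus strand), that of Flt1 chr5:147726012-147726261 (minus strand) and that of Nrp1 chr8:128358823-128359072 (plus strand), which lies in an intron of longer Nrp1 transcripts. Capitals mark matches on either strand, which do not overlap one another here. They are to the core of the hypoxia response element (ACGTG or GCGTG), to the GC box of Sp1 (GGGCGG) and to CGGAAG, a longer form of the ETS site. Other forms of the ETS site were not searched.
Kdr: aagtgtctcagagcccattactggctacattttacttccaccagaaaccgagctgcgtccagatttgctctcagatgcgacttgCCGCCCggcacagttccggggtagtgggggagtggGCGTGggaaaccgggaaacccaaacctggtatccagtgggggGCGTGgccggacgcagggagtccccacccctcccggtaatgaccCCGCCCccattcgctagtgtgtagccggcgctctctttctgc
Flt1: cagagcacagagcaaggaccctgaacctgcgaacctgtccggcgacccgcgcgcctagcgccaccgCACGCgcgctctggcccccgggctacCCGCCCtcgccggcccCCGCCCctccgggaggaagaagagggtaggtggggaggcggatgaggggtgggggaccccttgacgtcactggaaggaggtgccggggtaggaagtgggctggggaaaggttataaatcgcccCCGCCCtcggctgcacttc
Nrp1: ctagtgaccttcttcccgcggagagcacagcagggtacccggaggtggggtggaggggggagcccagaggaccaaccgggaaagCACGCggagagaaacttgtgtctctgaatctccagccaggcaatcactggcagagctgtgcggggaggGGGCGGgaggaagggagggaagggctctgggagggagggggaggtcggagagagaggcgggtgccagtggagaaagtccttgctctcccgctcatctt

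The Kdr window held 2 matches to GCGTG and 2 to GGGCGG, that of Flt1 1 and 3, and that of Nrp1 1 of each. None of the 3 held ACGTG or CGGAAG. Among 32851 RefSeq promoter windows of 250 bases, 28.2% held GCGTG, 32.7% GGGCGG, 16.6% ACGTG and 13.6% CGGAAG. The GC content was 61.5% for Kdr, 70.4% for Flt1 and 64.4% for Nrp1, beside a median of 52.4% over all windows. GCGTG and GGGCGG were each found in the windows of Kdr, Nrp1 and Flt1. The window of Vegfc held 2 matches to GGGCGG and no other.

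The genes that act on or below the receptors were followed in 5 lists. Of 25 receptor partners and modulators, 6 rose and 1 fell at day 1, 6 rose and 2 fell at day 3, and 5 rose at day 7, with a median log2 fold change of -0.25, 0.20 and 0.52 beside -0.03, 0.18 and 0.02 over all genes, of which 4.06%, 7.19% and 3.18% were called in either direction. Called higher were 2.42%, 4.62% and 2.19% of all genes, and called lower 1.64%, 2.58% and 0.992%. The list holds positive partners and inhibitors, and both were among those that rose. Itgb3, an integrin subunit that pairs with Kdr and is also abundant in platelets, rose from 9.25 ± 3.57 CPM in healthy LSECs to 392 ± 74.4 (SD, n = 2) at day 1, a log2 fold change of 5.41 (adjusted p = 1.66e-05), and was at 2.50 at day 3 (0.00129) and 1.83 at day 7 (0.00925). Thbs1, which encodes the inhibitor thrombospondin 1, rose by 4.63 (0.000931), 3.35 (0.00423) and 2.84 (0.0148) on the log2 scale. Cd93, a lectin-like receptor of endothelial and myeloid cells, rose by 2.88 at day 1 (2.01e-05). Sema3a, a semaphorin that binds Nrp1, rose from 0.541 ± 0.167 to 11.3 ± 0.506 CPM at day 1 (4.37, adjusted p = 0.000894).

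Other genes of the same list were called at day 3 and day 7. Vegfd, a ligand of Flt4 related to Vegfc, rose from 0.545 ± 0.168 CPM in healthy LSECs to 5.34 ± 0.496 at day 3 (log2 fold change 3.29, adjusted p = 0.00915). At day 7 it was at 3.53 ± 3.70 CPM (2.69, 0.0371). Ccbe1, which helps to cleave VEGF-C into its active form, rose by 2.59 at day 3 (0.0131) and 3.18 at day 7 (0.0108). Sulf2, an enzyme that removes sulfates from heparan sulfate, rose by 2.08 and 2.11 (0.00271 and 0.00542). Clec14a, an endothelial lectin, fell by 1.27 on the log2 scale at day 3 (0.00819). Vegfd at both times and Ccbe1 at day 3 were named after their values were seen. Stellate cell markers were called higher for 8 of 10 genes at day 3 and 10 of 10 at day 7, and their part in these values was not tested.

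Of 49 signal transduction genes, 2 rose at day 1, 1 rose and 4 fell at day 3, and 1 fell at day 7. These were 4.08%, 10.2% and 2.04% of the list, beside 4.06%, 7.19% and 3.18% of all genes. The medians were -0.28 at day 3 and -0.09 at day 7. Nos3, the endothelial nitric oxide synthase, rose from 102 ± 24.2 to 438 ± 24.4 CPM at day 1 (log2 fold change 2.11, adjusted p = 0.00134). Of its 4132 exon bases, 1334 are shared with Gm15587 and Atg9b on the other strand, and the use of strand in the counts was not given. Sphk1, a kinase that makes sphingosine 1-phosphate, rose by 4.15 at day 1 (0.00259) and 2.00 at day 3 (0.0421). The genes that fell at day 3 were Ppp3ca, a catalytic subunit of calcineurin (-0.86, 0.0246), the adaptor Nck1 (-0.94, 0.0283) and the Src family kinases Yes1 (-1.03, 0.0431) and Fyn (-0.88, 0.0465), the last named after its value was seen.

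Of 16 endothelial genes that VEGF is known to induce, 3 rose at day 1, 4 rose and 1 fell at day 3, and none was called at day 7. These were 18.8%, 31.2% and 0.0% of the list, beside 4.06%, 7.19% and 3.18% of all genes. At day 7, 4 had an unadjusted p under 0.05, DESeq2 called 1 and limma 4, where limma called 7047 of all 26626 genes. The medians were -0.07, 0.38 and -0.002 on the log2 scale. Angpt2, an antagonist of the Tie2 receptor, rose by 1.98 at day 1 (0.000828) and, named after its value was seen, by 0.81 at day 3 (0.0397). Apln, a peptide of sprouting tip cells, rose by 2.76 (0.0111) and 3.19 (0.00311) and the potassium channel subunit Kcne3 by 1.68 (0.0235) and 2.60 (0.00156). Esm1, another tip cell gene, rose by 1.61 at day 3 (0.0182). Rcan1, an inhibitor of calcineurin that is itself a calcineurin target, fell by 1.14 at day 3 (0.0123). Genes of the list thus moved in both directions at day 3.

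Of 20 genes of hypoxia sensing and hypoxia response, 5 rose at day 1, 2 rose at day 3 and none was called at day 7. These were 25.0%, 10.0% and 0.0% of the list, beside 4.06%, 7.19% and 3.18% of all genes. At day 7, 4 had an unadjusted p under 0.05, DESeq2 called 2 and limma 4, where limma called 7047 of all 26626 genes. The medians were 0.73, 0.09 and -0.05. Hif1a, the oxygen-regulated subunit of the hypoxia factor, rose from 90.0 ± 3.06 to 357 ± 58.6 CPM at day 1 (log2 fold change 1.99, adjusted p = 4.45e-05). The glucose transporter gene Slc2a1 rose by 2.71 (0.000382), Pgk1 of glycolysis by 1.45 (0.000839), the oxygen sensor gene Egln3 by 2.43 (0.016) and, named after its value was seen, Pdk1 by 1.23 (0.0167). Vegfa, itself a known target of this response, was not called by edgeR at day 1, while limma called it higher (adjusted p = 0.0178). Slc2a1 (1.22, 0.0167) and Pgk1 (0.81, 0.0101) were also called at day 3. Of 12 transcription factors of endothelial and lymphatic identity, Sox17 fell by 0.74 at day 3 (0.0302) and no other was called by edgeR, so 8.33% of the list against 7.19% of all genes. At day 1 and day 7, where edgeR called none, 2 and 4 of the 12 had an unadjusted p under 0.05, DESeq2 called 1 and 0, and limma called 3 and 5. Over all 26626 genes, limma called 4308 at day 1 and 7047 at day 7. Without day 1 replicate 1, the numbers called at day 1 were 4 partners and modulators, 1 signal transduction gene, 1 VEGF-induced gene and 2 hypoxia genes. At day 3 no signal transduction gene or transcription factor was called without healthy replicate 1, and no hypoxia gene without healthy replicate 4. Scaled to pan-endothelial genes, no gene of the 5 lists was called lower at any time, and the numbers called higher at day 3 were 12 partners and modulators, 16 signal transduction genes, 6 VEGF-induced genes, 8 hypoxia genes and 1 transcription factor.

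**Figure D4:**
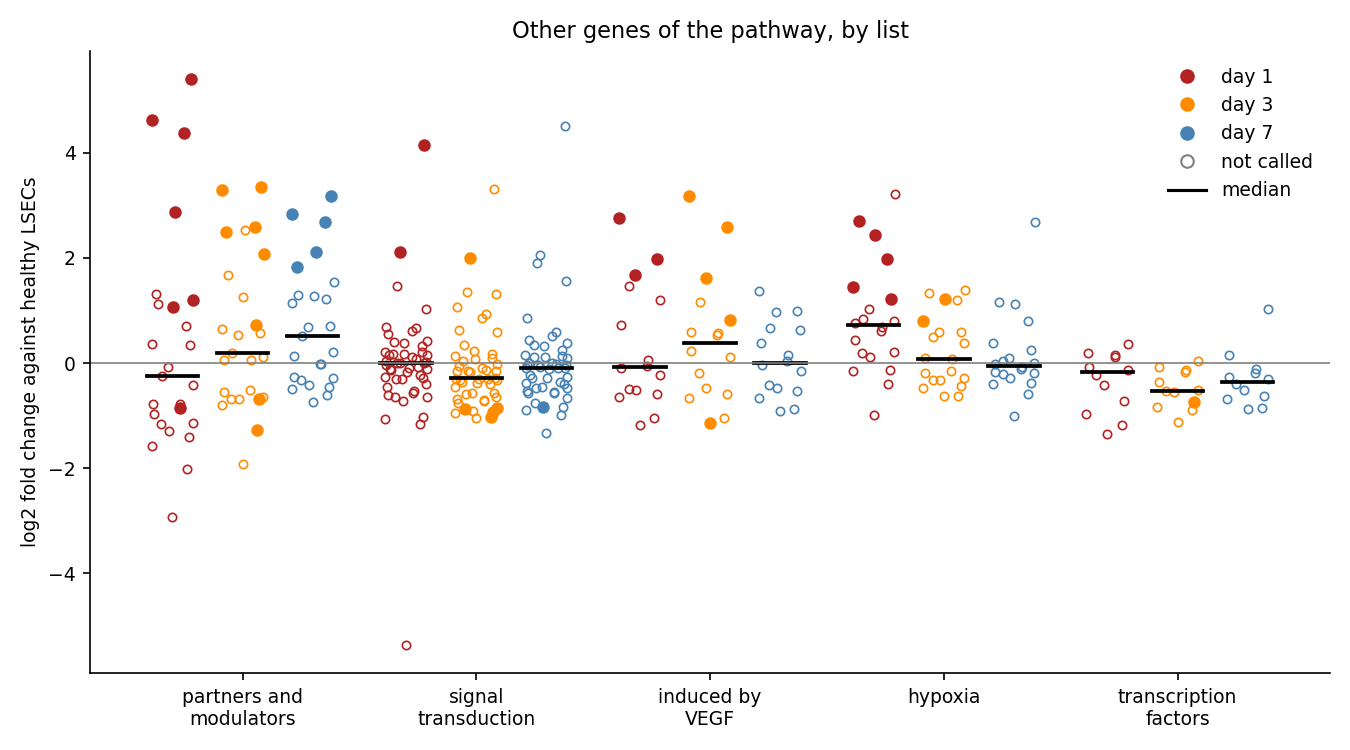
Log2 fold change against healthy LSECs of every gene of the 5 lists, at day 1, day 3 and day 7; filled points are called, open points are not, and the black line is the median of the list. The called partners and modulators reach 5.41 at day 1 (Itgb3), and the hypoxia list has its highest median, 0.73, at day 1.

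The genes whose pattern over the 14 samples was nearest to that of each called member were taken by the root mean square difference of mean-centred log2 CPM among 16849 protein-coding genes. For Kdr these were Phldb2 (0.13), Mmd (0.13) and Stard8 (0.14), against 0.63 for the spread of Kdr itself. Phldb2 had means of 346 CPM in healthy LSECs, 123 at day 1, 189 at day 3 and 249 at day 7. For Nrp1 they were Igfbp4 (0.20), Zmynd15 (0.21) and Ehd3 (0.22), and Igfbp4, an inhibitor of insulin-like growth factors, had means of 2286, 497, 1195 and 1521 CPM. For Vegfc they included Eef2 (0.23) and Mlec (0.28), and the elongation factor gene Eef2 had means of 426, 586, 753 and 666 CPM. Within the family, the closest pair was Nrp2 and Vegfb (0.25), followed by Kdr and Nrp1 (0.26), and these values share the 14 samples and their scaling.

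**Figure D5:**
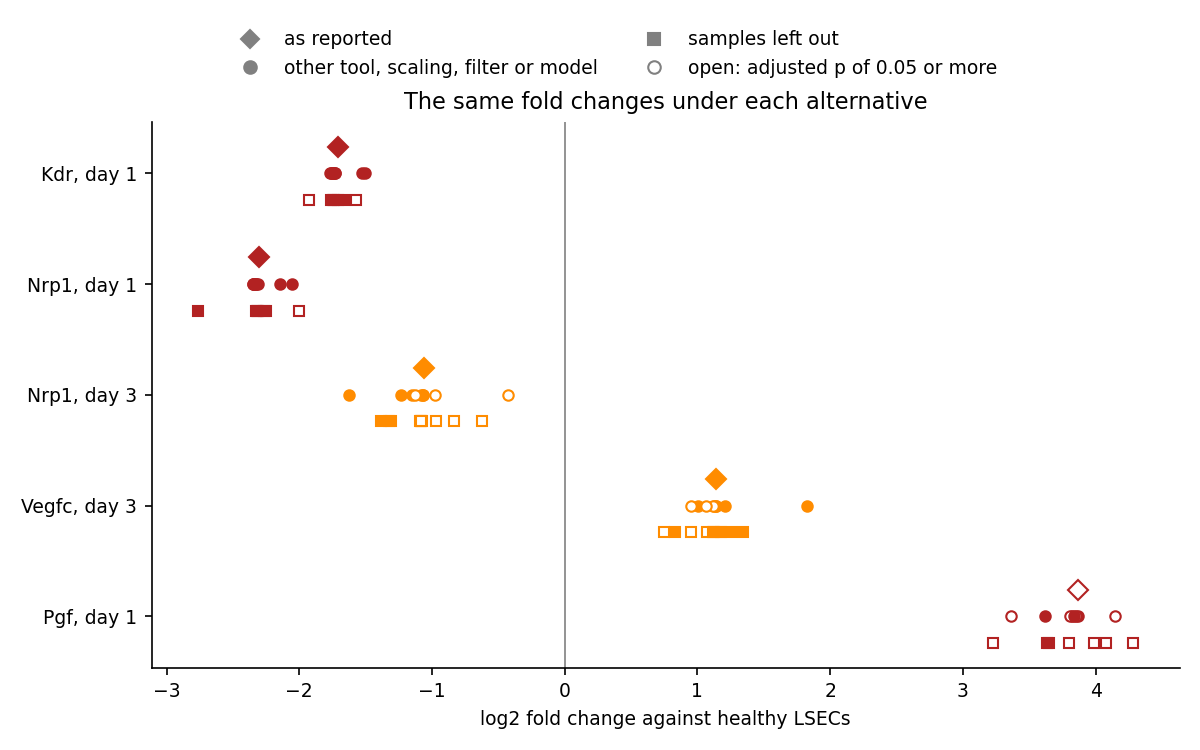
Log2 fold change against healthy LSECs of Kdr, Nrp1 and Pgf at day 1 and of Nrp1 and Vegfc at day 3, as reported (diamonds), with another tool, scaling, filter or model (circles) and with samples left out (squares); open symbols have an adjusted p of 0.05 or more. All values keep their sign, and open symbols are found in every row.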

How the data were processed

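RNA of sorted LSECs had been sequenced in 14 samples (SMART-Seq v4 libraries). Per the paper's methods, the authors trimmed the reads, mapped them with STAR to GRCm38.p6 and assembled them with StringTie; the counts they deposited are whole numbers of reads for each Ensembl gene in each sample, not normalized. The annotation release, the use of strand and the step from StringTie to whole numbers were not given in the sources used here, and the labels and the methods differ on the age of the mice and on CD45 in the sort. The authors left out further day 1 samples for low RNA quality. The 9 genes and the lists were chosen with earlier results of these data known.

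Counts were filtered with filterByExpr (minimum count 10, minimum total 15), scaled with TMM and tested with edgeR 4.0.16 (R 4.3.3) in 1 quasi-likelihood model of 4 group means over 14 samples, with Benjamini-Hochberg adjustment over all genes, whereas the authors used DESeq2. Standard errors are the absolute log2 fold change over the square root of F. CPM use TMM-scaled library sizes, and log2 CPM a prior count of 2. Lengths are merged GENCODE vM21 exons. The rule for named genes was all 9 genes, from each list at most 4 called genes with the smallest p per comparison, and the 3 protein-coding genes nearest in pattern to each gene called against healthy. Some genes that this rule names are not reported here. The floor of 3 counts covers counting error only, while SDs and standard errors include the spread between samples. As alternatives, DESeq2 1.42.0 was run, then limma 3.58.1 (quality-weighted voom), 3 other scalings, 2 other filters, models of 2 groups, a replicate block and leaving out samples. edgeR, DESeq2 and limma were tested on simulated counts. Samples with the same number in different groups did not deviate together (18 pairs, r -0.232 to 0.0962), so the numbers do not pair them. No column of the table was unused.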

Additional observations from a re-analysis of the deposited data

Results flagged for a closer look

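Healthy replicate 4 had 490 CPM of Flt1, while the other 3 healthy samples lay between 525 and 526 CPM. Its gap to the nearest sample made up 0.967 of the range of the group on the log2 scale. It was 1 of 27 sets of gene and group looked at, and chance marks about 1 in 20 such sets. The same library had the highest hepatocyte marker sum of the healthy group, and its part in this value was not tested.

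The effect of CCl4 on Kdr and on Nrp1 differed between day 1 and day 7, by 1.19 and 1.52 on the log2 scale. This is the day 7 against day 1 contrast of the report, which rests on 2 day 1 samples, and its calls were lost when either was left out.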

How the results depend on the processing

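Of 868 log2 fold changes of the 9 genes under alternatives, 735 kept direction and call, 35 lost a call, 41 gained one and 57 changed sign without a call before or after. The cause of these changes was not tested. The numbers of the 9 genes called that moved by more than 1.5 times were, with limma, 5, 6 and 4 at day 1, day 3 and day 7 against healthy, 1 from day 1 to day 3 and 3 from day 3 to day 7; with DESeq2, 4, 1 and 2 at day 3, at day 7 and from day 1 to day 3; scaled to pan-endothelial genes, 3 at day 7 and 2 from day 1 to day 3; with library size only, 1 at day 3 and 1 from day 1 to day 7; without a filter, 1 and 1 for the same; with the replicate block, 1 at day 3 and 0 from day 1 to day 7; in models of 2 groups, 0 at day 3 and 2 at day 7; without day 3 replicates 1 and 2, chosen after seeing the data, 1 at day 3 and 2 from day 1 to day 3. Leaving out 1 sample gave 0 to 2 at day 1, 0 to 4 at day 3, 0 to 1 from day 1 to day 3 and 0 to 1 from day 1 to day 7.

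Over all genes, 1080, 1915 and 846 were called at day 1, day 3 and day 7 against healthy, 676 from day 1 to day 3, 2142 from day 1 to day 7 and 472 from day 3 to day 7. DESeq2 called 2839, 3791, 2714, 2408, 4576 and 1783 in this order, limma 4308, 7265, 7047, 3344, 7610 and 6002, and models of 2 groups 2327, 1108, 3156, 189, 4465 and 1. The replicate block, with which same-numbered samples share only a number, moved the counts to 594 at day 1, 435 at day 7, 311, 1084 and 244 between days. The block left Vegfc at day 3 at 1.12 (adjusted p = 0.0539), and Kdr and Nrp1 from day 1 to day 7 at 0.98 (0.11) and 1.26 (0.0796), none of them called. Pan-endothelial scaling gave 6097 at day 3, 3637 at day 7 and 43 from day 3 to day 7, and for the last library size only gave 287 and no filter 157. Without healthy replicate 4 and day 3 replicate 4 there were 2524 at day 7, 1331 from day 1 to day 3 and 1692 from day 3 to day 7, and without day 3 replicates 1 and 2 there were 1923 from day 1 to day 3. Leaving out 1 sample gave 164 (without day 1 replicate 1) to 810 at day 1, 946 to 3314 at day 3, 193 to 1509 at day 7, 49 to 915 from day 1 to day 3, 146 to 1950 from day 1 to day 7 and 26 to 1652 from day 3 to day 7. Of genes called from day 1 to day 7, 45.3% were higher with TMM, 56.0% with library size only and 89.0% scaled to pan-endothelial genes, and from day 1 to day 3 the shares were 61.8%, 71.7% and 94.2%.

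Sign changes without a call were as follows. Scaled to pan-endothelial genes, Flt1 was 0.13, 0.15 and 0.25 at day 1, day 3 and day 7, Vegfb 0.0634, 0.38 and 0.36, Nrp2 0.42 at day 3, Flt4 0.20 and Kdr 0.12 at day 7. From day 1 to day 3, this scale gave Flt1 0.0192, Nrp2 0.42 and Vegfb 0.32, and from day 1 to day 7 Flt1 0.12, Flt4 0.25, Vegfa 0.13 and Vegfb 0.30. With the replicate block, Flt1 was 0.0668 and Vegfb 0.0244 at day 1, Vegfc -0.0727 from day 1 to day 7 and Vegfb 0.0255 from day 3 to day 7. With limma, Flt4 was -0.36 at day 3 and -0.0778 from day 1 to day 3, and Vegfb 0.48 from day 3 to day 7. Without a filter, Flt4 was -0.0528 and Vegfa -0.12 at day 3, Nrp2 -0.0164 at day 7, Vegfc -0.0357 from day 1 to day 7 and Vegfb 0.0137 from day 3 to day 7. For the last, DESeq2 gave 0.0135, RLE size factors 0.0137 and the strict filter 0.0786. In the model of 2 groups Vegfa was -0.0288 at day 3, and with library size only Nrp2 was 0.10 from day 1 to day 3. Leaving out 1 sample gave Flt1 from -0.217 to 0.023, Flt4 from -0.581 to 0.0009 and Vegfb from -0.359 to 0.0387 at day 1, and Flt4 from -0.357 to 0.311 and Vegfa from -0.169 to 0.165 at day 3. From day 1 to day 3 it gave Flt4 from -0.101 to 0.635, Nrp2 from -0.297 to 0.133 and Vegfb from -0.397 to 0.057, from day 1 to day 7 Flt4 from -0.411 to 0.172, Vegfa from -0.575 to 0.226, Vegfb from -0.316 to 0.0829 and Vegfc from -0.125 to 0.228, and from day 3 to day 7 Vegfb from -0.181 to 0.267.

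With 2 samples at day 1, a fit without 1 of them assumes that the other varies like the remaining groups. Pgf, at 0 to 332 reads per sample, was set by few reads, so its level was known less well than those of the other 8 genes.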
